A study of Homo sapiens with 6 samples.

Results

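The clustered histone genes were taken as every gene of GENCODE release 29 that is annotated as protein coding and whose symbol begins with HIST1H, HIST2H, HIST3H or HIST4H. The rule gives 71 genes, of 33367 genes to which the transcripts of the tables could be matched. They comprise 6 genes for the linker histone H1, 17 for H2A, 18 for H2B, 15 for H3 and 15 for H4. Of these, 46 had a transcript in the tables, and the other 25 were not analysed here. The largest cluster, HIST1, lies on chromosome 6 (chr6:25726132-27893843 on GRCh38) and held 33 of the 46, while HIST2 on chromosome 1 held 10, HIST3 on chromosome 1 held 2 and HIST4 on chromosome 12 held 1.

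RNA was sequenced from K562, an established human erythroleukaemia cell line, in 6 cultures with 1 library each. Every culture was a clone with a doxycycline-inducible short hairpin RNA (shRNA), kept in 2 µg/ml puromycin and taken at day 4. The clone named NT carries a non-targeting shRNA, and the clones c1 and c2 carry an shRNA against CDAN1. Each clone gave 1 induced library (1 µg/ml doxycycline) and 1 uninduced library (no doxycycline), so that the controls of the 2 induced CDAN1 shRNA libraries were the uninduced c1 and c2 libraries and both NT libraries. A difference between clones can be a difference between those single clones, and every p-value measures only the spread between these 6 cultures.

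Replication-dependent histone genes supply the proteins that package newly copied DNA, and their transcription peaks in S phase. Their main mRNAs have no introns and end, without a poly(A) tail, just after a conserved stem-loop that the stem-loop binding protein SLBP holds. Some of these genes also give longer, polyadenylated mRNAs that read past the stem-loop, mostly in differentiating cells. The CDAN1 protein, codanin-1, binds ASF1, a chaperone that carries histones H3 and H4, and mutations of CDAN1 cause a congenital dyserythropoietic anaemia.

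The stem-loop was searched for in the GENCODE transcripts as a motif of 16 bases on the transcript strand: GG, any 3 bases, TT, any base, T, any base, A, any 3 bases and CC, with each of the first 6 bases able to pair with its partner among the last 6 (G with T allowed). It was found in 46 of the 100 annotated transcripts of the 71 genes, belonging to 32 genes, and in 316 of 206594 transcripts of other genes (0.153%). Several transcripts without a match, such as those of HIST1H2AD, HIST1H3D and HIST2H3D, are annotated without a 3′ untranslated region. A stem-loop beyond their annotated end could not be found, so a missing match does not show that a gene lacks it. The stem-loops of genes that recur below are shown because their annotated transcripts end at different distances beyond them, with the stem-loop in capitals between its flanking bases.
HIST1H2AC: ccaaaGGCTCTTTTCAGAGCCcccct
HIST2H2BE: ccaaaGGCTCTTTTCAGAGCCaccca
HIST2H2AA3: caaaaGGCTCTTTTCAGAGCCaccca
HIST1H2BC-202: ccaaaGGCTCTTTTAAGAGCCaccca
HIST1H3H: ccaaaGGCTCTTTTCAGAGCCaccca
HIST2H4A: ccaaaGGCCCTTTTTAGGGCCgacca
HIST1H4H: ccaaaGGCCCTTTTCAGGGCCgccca

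On GRCh38, these windows lie in the 3′ untranslated regions. The plus strand holds those of HIST1H2AC (chr6:26124664-26124689), HIST1H3H (chr6:27810511-27810536) and HIST2H4A (chr1:149833027-149833052). The minus strand holds those of HIST2H2BE (chr1:149886183-149886208), HIST2H2AA3 (chr1:149842218-149842243), HIST1H2BC (chr6:26123467-26123492) and HIST1H4H (chr6:26285126-26285151). Beyond the stem-loop, the annotated HIST2H2BE transcript runs on for 1729 bases and HIST1H2AC-201 for 1128 bases, but that of HIST2H2AA3 for 35 bases and HIST1H4H-201 for 18 bases. The tables give the annotated length for HIST1H2AC-201, HIST1H2BC-202, HIST2H2AA3 and HIST1H4H-201, but 2223 bases against 2194 for HIST2H2BE, 473 against 1237 for HIST1H3H and 396 against 583 for HIST2H4A. Where the lengths differ, the distance from the stem-loop to the end of the counted transcript is not known. HIST1H1C, annotated by GENCODE with 642 bases and no 3′ untranslated region, had no match there, and its transcript in the tables has 732 bases.

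The libraries held 28318555 to 32352246 estimated reads. Reads of the clustered histone genes made up 0.0975% to 0.141% of those matched to genes. CDAN1 itself stood at 62.5 CPM (reads of a gene per fixed number of reads matched to genes, with library sizes scaled by TMM) in uninduced and 70.2 in induced NT, at 37.0 and 17.0 in c1, and at 55.4 and 29.8 in c2, so both induced CDAN1 shRNA libraries were below all 4 controls. All 12 erythroid markers examined were at or above 1 CPM in every library. Of 16 markers of lymphoid, epithelial, fibroblast, liver and monocyte cells, 4 reached 1 CPM in all 6 libraries. KRT8, a keratin of simple epithelia, was the most abundant of these at 370.3 to 650.3 CPM, and the B-cell marker MS4A1 was listed at 0 in all 6.

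Of the 46 listed genes, 38 had a count above 0, namely all 6 H1 genes, 11 H2A, 9 H2B, 7 H3 and 5 H4 genes. The other 8 (HIST1H2AA, HIST1H2AJ, HIST2H2AA4, HIST1H2BA, HIST1H2BI, HIST1H2BK, HIST1H4B and HIST1H4F) were listed at 0 in every library. A count of 0 allows up to 3 counts, or 0.0989 to 0.113 CPM of the reads matched to genes. HIST2H2AA4 is a near-identical copy of HIST2H2AA3, and reads from these neighbours cannot be told apart. A filter for low counts left 29 of the 38 genes among 14075 tested genes. The 9 others never exceeded 14 reads and were not tested: HIST1H1A, HIST1H1T, HIST1H2AH, HIST2H2AB, HIST1H2BF, HIST2H3PS2, HIST3H3, HIST1H4C and HIST4H4.

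Near-identical coding sequences limit how far single genes can be separated. The share of a gene's 31-base words found in no other GENCODE gene was 80% or more for 16 of the 29 tested genes, including HIST1H1C (99.2%), HIST1H2AC (98.2%) and HIST2H2BE (87.6%). It was 0% for HIST2H2AA3, HIST1H3D and HIST2H3C, 1.4% for HIST2H4A and 1.9% for HIST1H2AD. Values of these 5 genes are uncertain, because reads in shared sequence cannot be assigned to 1 gene with certainty. HIST2H3A and HIST2H4B, with 0% and 2.8% of such words, had no transcript listed, and HIST2H2AA4 was at 0 in every library. Reads from such genes may therefore be counted under a listed gene. The share was measured on GENCODE, not on the counted transcripts. Library strand is not given in the sources used here, so reads from genes antisense to these could also be counted.

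**Figure D1:**
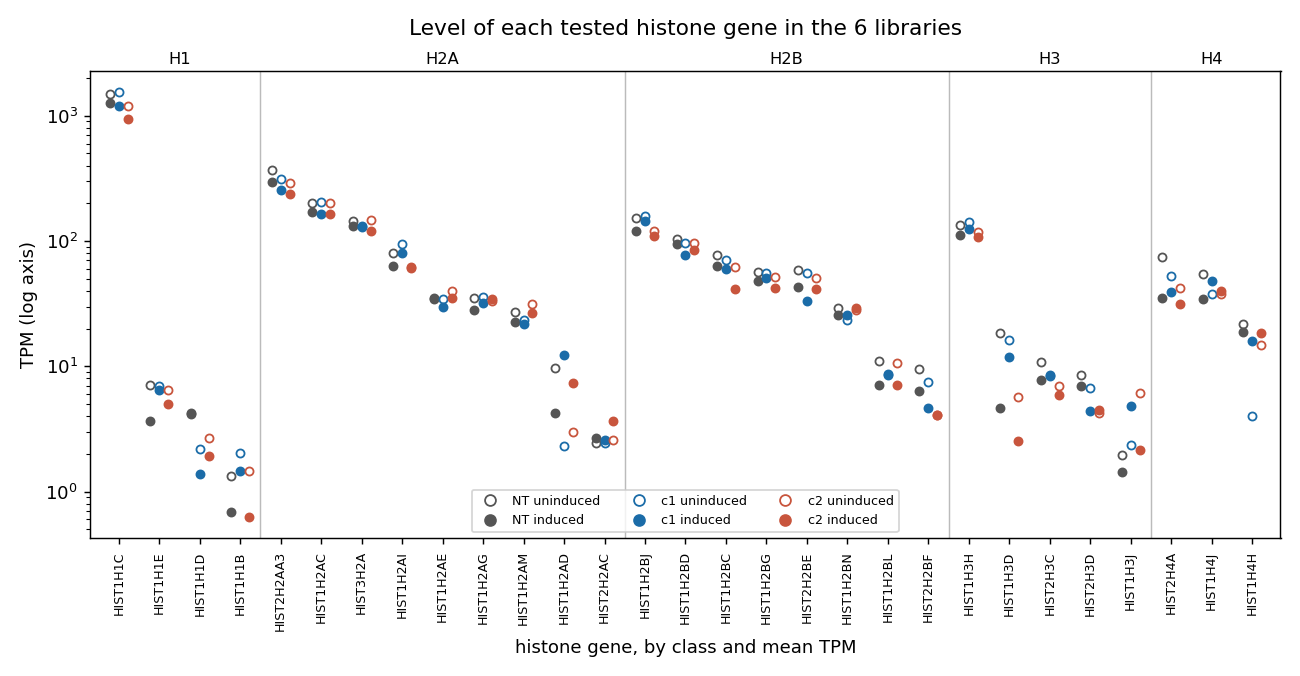
Level of the 29 tested clustered histone genes, in TPM on a log axis, grouped by class and ordered by mean within a class. Each circle is 1 library, open for uninduced and filled for induced, coloured by clone. HIST1H1C stands highest, between 940.7 and 1533 TPM. By mean, HIST2H2AA3, HIST1H2AC, HIST1H2BJ, HIST3H2A and HIST1H3H come next, while most genes of each core histone class average below 100 TPM.

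HIST1H1C (ENSG00000187837, chr6:26055787-26056428, minus strand), which encodes a main somatic linker histone, averaged 1273 ± 220.4 TPM (SD, n = 6) and held 41.7% to 48.6% of all clustered histone reads. Per length, the core histone genes that followed were HIST2H2AA3 at 292.7 ± 45.2 TPM, then HIST1H2AC, HIST1H2BJ, HIST3H2A and HIST1H3H. Summed over its genes, H1 made up 42.9% to 49.3% of the clustered histone TPM of a library and H2A 26.8% to 31.1%. H2B took 15.2% to 16.3%, H3 5.0% to 6.0% and H4 3.1% to 4.7%, although nucleosomes hold equal numbers of the 4 core histones. These shares cover unequal parts of the classes. A transcript was listed for all 6 H1 genes, 14 of 17 H2A and 12 of 18 H2B genes, but for 7 of 15 H3 and 7 of 15 H4 genes. Reads of the unlisted genes were not counted under their names. Poly(A) selection, ribosomal RNA depletion or their absence is not given in the sources used here. A list of 12 RNAs chosen as having a short poly(A) tail or none had no matched transcript. The capture of tailless histone mRNA was therefore not tested.

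The first comparison asked whether the doxycycline state changed histone mRNA in the clones. The summed level of the 38 genes was lower in the induced library of each clone. It stood at 1424 CPM in uninduced and 1143 in induced NT, at 1414 and 1103 in c1, and at 1157 and 961.7 in c2. Induced libraries thus held 80.3%, 78.0% and 83.1% of the uninduced level, including the clone without a CDAN1 hairpin, and every induced library lay below every uninduced one. The means were 1332 ± 151.5 CPM uninduced and 1069 ± 95.2 CPM induced (SD, n = 3). An exact permutation test on 3 against 3 libraries cannot go below a two-sided p of 0.10. In bulk RNA, fewer cells making a transcript and less of it per cell cannot be told apart.

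The lower sum did not rest on HIST1H1C. Without it, the induced libraries held 78.8% (NT), 79.3% (c1) and 86.0% (c2) of the uninduced CPM. H1 genes stood at 81.7%, 76.7% and 79.3% of the uninduced level, H2A genes at 81.5%, 80.1% and 86.0%, and H2B genes at 78.0%, 75.1% and 85.7%, in the same order of clones. H3 and H4 varied more between the clones. H3 genes stood at 73.0% in NT, 89.8% in c1 and 87.6% in c2. H4 genes stood at 55.7%, 102.4% and 94.5%, the only class sum that was higher in an induced library. In TPM the falls in c1 were smaller for H2A and H2B. H2A genes then stood at 83.3%, 86.9% and 84.6%, and H2B genes at 81.2%, 84.8% and 84.7%. Without HIST1H1C, the sum over all classes in TPM stood at 79.6%, 87.7% and 85.3%.

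**Figure D2:**
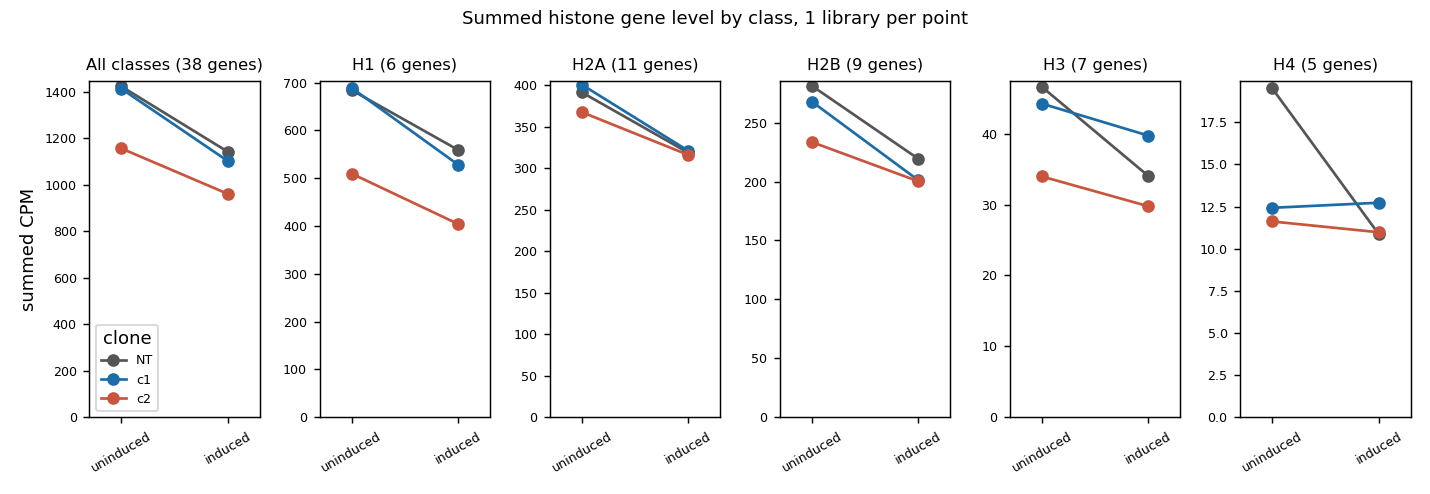
Summed CPM of the clustered histone genes in the uninduced and induced library of each clone, over all classes and for each class, with axes that start at 0. Each point is 1 library and each line 1 clone. H1, H2A and H2B slope down in all 3 clones, from 1424 to 1143 CPM over all classes in NT, while H4 is level in c1 and c2.

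Gene by gene, 19 of the 29 tested genes (65.5%) were lower in the induced library of all 3 clones, against 19.9% of all tested genes. HIST2H2AC was the single gene higher in all 3 (3.45%, against 17.8% of all tested genes), with 11 to 18 reads a library. In NT 28 of the 29 were lower, in c1 23 and in c2 21. The median difference, induced minus uninduced on the log2 CPM scale, was −0.36 in NT, −0.26 in c1 and −0.23 in c2. Over all tested genes it was −0.002, −0.014 and −0.001. Of the 14 genes averaging 10 CPM or more, 11 were lower in all 3 clones (1981 of 9094 genes at that level, 21.8%), and of the 16 genes with mostly unique sequence 13 were. These 2 subsets were chosen after the data were seen.

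**Figure D3:**
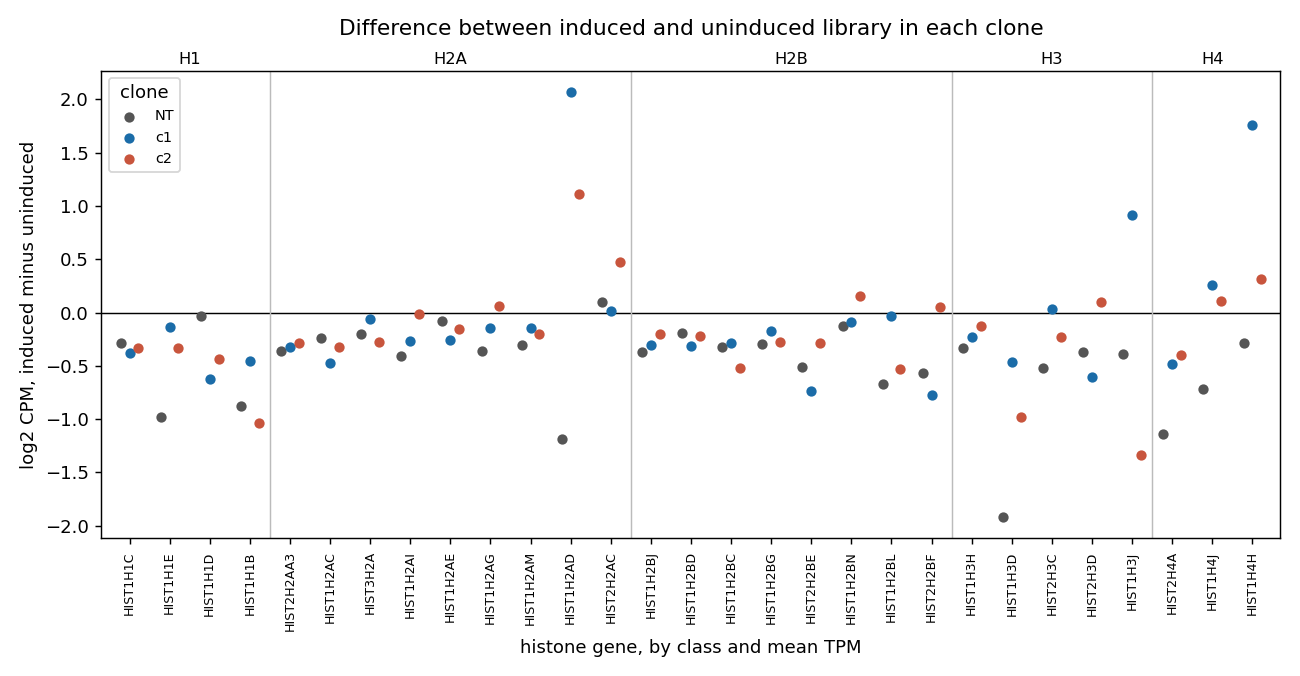
Difference between the induced and the uninduced library of each clone, as log2 CPM (prior count of 2), for the 29 tested genes grouped by class. Each point is 1 clone. All 4 tested H1 genes lie below 0 in all 3 clones, and the points far above 0 belong to HIST1H2AD and HIST1H4H, which have few reads.

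Among linker histones, all 4 tested genes were lower in the induced library of every clone. HIST1H1C stood at 678 CPM in uninduced and 555 in induced NT, at 683 and 524 in c1, and at 504.7 and 400.7 in c2. The induced library of each clone was below its uninduced partner, but induced NT and induced c1 lay above uninduced c2, so the states overlapped. In NT the induced level was 81.9% of the uninduced one (95% exact binomial interval, Clopper-Pearson, 80.2% to 83.7%, which covers counting error only), in c1 76.7% (75.1% to 78.3%) and in c2 79.4% (77.5% to 81.3%).

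The other linker histone genes were far less abundant. HIST1H1E had 3.54 and 1.76 CPM in uninduced and induced NT, 3.46 and 3.14 in c1, and 3.02 and 2.39 in c2. Each clone was lower when induced, by the widest margin in NT. HIST1H1D had 2.07 and 2.03 CPM in NT, 1.06 and 0.661 in c1, and 1.23 and 0.896 in c2, so that both NT libraries stood above the other 4. HIST1H1B had 0.678 and 0.338 CPM in NT, 1.02 and 0.728 in c1, and 0.685 and 0.299 in c2, from 9 to 29 reads a library. HIST1H1T, a testis linker histone that was not tested, had 14 and 7 reads in NT and 2 to 5 in the other libraries.

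Of the 9 tested H2A genes, which encode a core histone of the nucleosome surface, 6 were lower in all 3 induced libraries. HIST1H2AC (ENSG00000180573, chr6:26124145-26139116, plus strand) had 152.6 and 129.0 CPM in uninduced and induced NT, 179.2 and 129.0 in c1, and 170.1 and 136.3 in c2. Every induced library lay below every uninduced one, and the induced level was 84.5%, 72.0% and 80.2% of the uninduced one in NT, c1 and c2. HIST2H2AA3 (ENSG00000203812, chr1:149842188-149842736, minus strand) had 101.6 and 79.0 CPM in NT, 86.3 and 69.1 in c1, and 75.5 and 62.0 in c2. Here each clone was lower when induced but the states overlapped, since induced NT exceeded uninduced c2.

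HIST3H2A, from the small cluster on the long arm of chromosome 1, had 32.9 and 28.7 CPM in NT, 29.8 and 28.6 in c1, and 31.2 and 25.8 in c2. The induced libraries again lay below all uninduced ones, though narrowly. HIST1H2AI had 21.1 and 15.9 CPM in NT, 24.4 and 20.3 in c1, and 15.1 in uninduced c2, whose induced library held 99.2% of that level. HIST1H2AG had 65.8 and 51.1 CPM in NT, 65.5 and 59.2 in c1, and 58.2 and 60.6 in c2, so c2 went the other way. HIST1H2AE, with 7.97 to 10.2 CPM, was among the genes whose states did not overlap.

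HIST1H2AD had 1.28 and 0.525 CPM in NT, 0.318 and 1.55 in c1, and 0.377 and 0.896 in c2. It was lower in induced NT but higher in induced c1 and c2, from 9 to 47 reads, nearly all in sequence shared with other H2A genes.

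H2B partners H2A in the nucleosome, and 6 of its 8 tested genes were lower in all 3 induced libraries. HIST2H2BE (ENSG00000184678, chr1:149884459-149886652, minus strand) had 110.2 and 77.6 CPM in uninduced and induced NT, 100.8 and 60.7 in c1, and 88.7 and 72.8 in c2. The states did not overlap, and the induced level was 70.4% (95% exact interval 66.5% to 74.5%) of the uninduced one in NT, 60.2% (56.7% to 63.9%) in c1 and 82.1% (77.5% to 86.9%) in c2. In c1 no other clustered histone gene averaging 10 CPM or more stood at so low a share of its uninduced level.

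HIST1H2BJ had 41.2 and 31.9 CPM in NT, 49.1 and 39.8 in c1, and 36.0 and 31.3 in c2. HIST1H2BD had 41.9 and 36.6 CPM in NT, 36.8 and 29.6 in c1, and 35.6 and 30.6 in c2. HIST1H2BC had 28.6 and 22.8 CPM in NT, 25.8 and 21.1 in c1, and 20.9 and 14.5 in c2. In each of these 3 genes the induced library was the lower of its clone, and the states overlapped across clones. HIST1H2BN had 28.6 and 26.2 CPM in NT, 26.5 and 24.9 in c1, and 27.5 and 30.6 in c2, where the induced library was the higher.

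H3, which with H4 forms the core tetramer of the nucleosome, had 5 tested genes, of which 2 were lower in all 3 induced libraries. HIST1H3H (ENSG00000278828, chr6:27810064-27811300, plus strand) had 27.8 and 22.1 CPM in NT, 29.5 and 25.1 in c1, and 22.7 and 20.9 in c2. All 3 clones were lower when induced, and induced c1 exceeded uninduced c2. HIST1H3D, which has no 31-base word of its own, had 2.75 and 0.675 CPM in NT, 2.40 and 1.72 in c1, and 0.788 and 0.365 in c2. It too was lower in every induced library, at 24.5%, 71.6% and 46.3% of the uninduced level.

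HIST2H3C had 14.4 and 9.98 CPM in NT, 10.9 and 11.1 in c1, and 8.67 and 7.40 in c2. HIST2H3D had 1.28 and 0.975 CPM in NT, 0.989 and 0.628 in c1, and 0.583 and 0.630 in c2. In these 2 genes, 1 clone each was not lower when induced.

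H4 had 3 tested genes, and HIST2H4A alone was lower in all 3 induced libraries. HIST2H4A (ENSG00000270882) had 10.1 and 4.54 CPM in NT, 7.21 and 5.13 in c1, and 5.28 and 3.98 in c2, so the states did not overlap. HIST1H4J had 6.26 and 3.79 CPM in NT, 4.42 and 5.29 in c1, and 4.04 and 4.38 in c2. HIST1H4H had 2.98 and 2.44 CPM in NT, 0.565 and 2.08 in c1, and 1.885 and 2.36 in c2. For HIST1H4J and HIST1H4H the NT clone was lower when induced and the CDAN1 shRNA clones were higher. Exact binomial intervals for the induced share of the uninduced level cover counting error only. For HIST1H4J they included no change in c1 (94.2% to 152.7%) and c2 (83.8% to 140.0%), but not in NT (46.8% to 78.0%). For HIST1H4H they included it in NT (58.1% to 115.2%) and c2 (86.7% to 181.1%). They did not in c1 (210.4% to 683.8%), where the uninduced library had 16 reads. Only 17.8% of the 31-base words of HIST1H4J were unique.

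In all, 6 of the 29 genes (HIST1H2AC, HIST2H2BE, HIST3H2A, HIST1H2AE, HIST2H4A and HIST1H2BL) had every induced library below every uninduced library, which held for 3.41% of all tested genes. In the edgeR quasi-likelihood test of 3 induced against 3 uninduced libraries, 0 of the 29 genes passed an adjusted p of 0.05, and 0% of the 14075 genes did. At an unadjusted p under 0.05 there were 3 of 29 genes (HIST1H2AC, HIST2H2BE and HIST2H4A) against 1.54% of all genes. The median log2 fold change of the 29 was −0.29 and that of all genes −0.005, with 26 of 29 below 0 against 51.3% of all genes.

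Each clone gave 1 library of each state, so the clone pairs them, and with the clone as a block HIST1H1C fell by 0.33 on the log2 scale (SE 0.04, edgeR adjusted p = 0.0474). No other gene of the 29 was called, against 0.107% of all genes called as lower. DESeq2 with the same block gave 4 of 29, all lower (HIST1H1C, HIST1H2AC, HIST2H2BE and HIST2H2AA3), against 0.725% of all genes called as lower, and voom gave HIST1H1C (0.149%). In that fit DESeq2 gave no adjusted p to some genes of few reads, such as HIST1H1D and HIST1H3D. Genes without an adjusted p count as not called here. Unadjusted, 13 of the 29 had a p under 0.05 in the blocked edgeR fit, against 13.6% of all genes. The call of HIST1H1C was lost without uninduced c1, induced c1 or uninduced c2, where its adjusted p reached 0.109 at most, and held without the other 3 libraries.

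Within the CDAN1 shRNA clones alone, edgeR called 0 of 29 genes between induced and uninduced libraries (0% of all genes), with 3 of 29 at an unadjusted p under 0.05 against 1.47% of all genes. With the clone as a block, HIST1H1C fell by 0.36 (SE 0.06, adjusted p = 0.0258) and HIST1H2AC by 0.40 (SE 0.07, adjusted p = 0.0304), 2 of 29 against 0.753% of all genes called as lower. DESeq2 and voom with the block called 2 of 29 as well, HIST1H1C and HIST1H2AC (0.384% and 0.59% of all genes). This blocked comparison uses 4 libraries that also enter the comparison of all 3 clones. HIST1H1C and HIST1H2AC were lower when induced in NT too, by 0.29 and 0.24 on the log2 CPM scale.

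Knockdown libraries were next set against all 4 controls, the comparison that the series' design names. By edgeR, 0 of the 29 genes were called (0% of all genes), 3 of 29 had an unadjusted p under 0.05 (HIST2H2BE, HIST1H2BD and HIST2H2AA3) against 2.29% of all genes, and the median log2 fold change was −0.22, against −0.001 over all genes. That median became −0.099 without induced c2 and −0.352 without induced c1. HIST2H2BE averaged 66.8 ± 8.54 CPM in the 2 knockdown libraries and 94.3 ± 14.2 in the 4 controls (SD), a log2 difference of −0.50 (SE 0.16, adjusted p = 1.0). HIST1H2BD averaged 30.1 ± 0.703 CPM against 37.7 ± 2.81, and HIST2H2AA3 65.6 ± 5.00 against 85.6 ± 11.6. Both knockdown libraries lay below all 4 controls for 5 of the 29 genes (HIST2H2BE, HIST1H2BD, HIST2H2AA3, HIST3H2A and HIST1H1D), against 5.19% of all tested genes. With the clone as a block, edgeR again called 0 of 29 (0.0426% of all genes), but DESeq2 called HIST1H1C and HIST1H2AC as lower (2 of 29, against 0.583%). In this blocked fit the NT libraries inform the estimate of spread but not the fold change. The fold change is again that between induced and uninduced libraries of c1 and c2, so these calls add no separate comparison with NT.

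The response of the CDAN1 shRNA clones was then compared with that of NT. By edgeR 0 of 29 genes differed (0% of all genes, and 0 of 29 with the clone as a block against 0.135%). A single gene, HIST1H2AD, had an unadjusted p under 0.05 (0.561% of all genes), with a log2 difference of 3.08 (SE 0.95, adjusted p = 1.0) that rests on the few reads given above. For HIST1H1C the difference of the responses was −0.07 (SE 0.37), for HIST1H2AC −0.15 (SE 0.15) and for HIST2H2BE 0.00 (SE 0.24), on the log2 scale. The median over the 29 genes was 0.15, against −0.001 over all genes, and became 0.009 without induced c1, 0.024 without uninduced c2, 0.23 without induced c2 and 0.308 without uninduced c1. A p above the threshold does not show that the responses were equal, and in this contrast 1 induced and 1 uninduced NT library carry the NT response.

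Levels also differed between clones irrespective of doxycycline. The summed level in c2 was 81.3% of that in NT among uninduced and 84.2% among induced libraries, while c1 stood at 99.4% and 96.6%. Without HIST1H1C, c2 stood at 87.4% and 95.5% of NT and c1 at 98.0% and 98.6%, so much of the lower sum in c2 rested on that gene. In an edgeR fit with terms for the clone and for doxycycline, 4 of the 29 genes were lower in c2 than in NT and 0 were higher, against 9.21% of all genes called as lower and 11.8% as higher. HIST1H1C was lower by a log2 fold change of −0.45 (SE 0.05, adjusted p = 0.000971), HIST2H2AA3 by −0.39 (SE 0.06, adjusted p = 0.00463), HIST1H2BC by −0.55 (SE 0.10, adjusted p = 0.00701) and HIST2H3C by −0.59 (SE 0.16, adjusted p = 0.0384). Both c2 libraries lay below both NT libraries for 10 of the 29 genes, close to the 31.2% of all tested genes. Leaving out induced c2 ended the call of HIST1H2BC, and leaving out uninduced NT or either c2 library ended that of HIST2H3C, whereas HIST1H1C and HIST2H2AA3 stayed under 0.05 with each of the 6 libraries left out.

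Clone c1 was higher than c2 in 6 of the 29 genes by that test and lower in 0, against 11.9% of all genes called as higher and 14.9% as lower. The 6 were HIST1H1C (log2 0.41, SE 0.05, adjusted p = 0.00101), HIST1H2AI (0.56), HIST1H2BJ (0.40), HIST1H2BC (0.42), HIST1H3D (1.93) and HIST1H3H (0.32). HIST1H1C was called with each library left out, while the other 5 were lost without 1 or more of the c1 or c2 libraries, HIST1H3H without any of the 4. By DESeq2, and with an offset for transcript length, HIST1H2BC and HIST1H3H were lost here and HIST2H3C was lost for c2 against NT. Without a doxycycline term all 4 calls for c2 against NT, HIST1H1C included, and all but HIST1H2AI of the 6 for c1 against c2 were lost. Between c1 and NT, 3 of 29 genes were called, 2 of them lower (14% of all genes) and 1 higher (13.8% of all genes). HIST1H1D (−1.28, SE 0.34, adjusted p = 0.0272) and HIST2H2AA3 (−0.21, SE 0.06, adjusted p = 0.0371) were lower in c1, and HIST1H2BJ (0.28, SE 0.08, adjusted p = 0.0371) was higher. DESeq2 called 0 of these 3, and leaving out uninduced NT left 0.

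Transcript models added detail on which form of the mRNA was counted. Of the 62 listed transcripts of these genes, 27 had the same length in the tables as in GENCODE 29, and they held 26.4% to 30.1% of the clustered histone reads. Within them, forms with more than 1 exon or a 3′ untranslated region of at least 150 bases took 70.8% to 77.3% of the reads of a library. With a limit of 100 bases in place of 150 the share was 97.8% to 99.0%, since the transcript of HIST2H2AA3, with 118 such bases, then counts among them. HIST1H2AC-201, a transcript of 1668 bases with 2 exons annotated as a target of nonsense-mediated decay, held 59.3% and 63.2% of the reads of HIST1H2AC in uninduced and induced NT, 73.1% and 65.7% in c1, and 70.8% and 70.2% in c2. When induced, its TPM came to 93.0% of the uninduced value in NT, 64.7% in c1 and 78.5% in c2.

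The spliced HIST1H2BD-201 held 68.3% to 74.7% of the reads of HIST1H2BD, and its induced TPM was 90.7%, 85.2% and 79.0% of the uninduced one in NT, c1 and c2. HIST1H2BD-202, with 1 exon and 523 bases in the tables against 496 in GENCODE, was at 90.1%, 73.9% and 100.0%. The order of these 2 forms thus differed between the clones. For HIST1H2BC, the spliced form held 77.3% to 89.4% of the reads. Division of reads between forms of a gene is an estimate, and no test was made on it.

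The pathway around these genes was read from the same fits. The list for making histone mRNA held 33 genes for its transcription, 3′ processing and decay, such as NPAT, the coactivator at histone gene clusters, and SLBP. Of 32 tested, 0 were called by edgeR between 3 induced and 3 uninduced libraries, 13 had a log2 fold change below 0, and the median was 0.02, against −0.29 for the clustered histone genes. SLBP had 159.4 and 158.3 CPM in uninduced and induced NT, 138.5 and 130.1 in c1, and 173.3 and 175.7 in c2. NPAT had 65.0 and 66.1 CPM in NT, 59.6 and 50.8 in c1, and 62.6 and 63.0 in c2. Neither was lower in the induced library of all 3 clones.

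Of 40 S-phase genes, 39 were tested, 0 were called, 25 were below 0 and the median was −0.02. PCNA, the sliding clamp of DNA polymerases, had 214.7 and 206.0 CPM in NT, 236.5 and 219.0 in c1, and 211.0 and 207.3 in c2. Each clone was lower when induced, but the states overlapped, since induced c1 exceeded uninduced NT and uninduced c2. RRM2, a subunit of ribonucleotide reductase, had 263.3 and 252.4 CPM in NT, 295.3 and 310.7 in c1, and 270.1 and 260.7 in c2. Lower levels in all 3 induced libraries were seen for 10 of the 39 S-phase genes (25.6%) and for 2 of the 32 genes that make histone mRNA (6.25%), beside the 19.9% of all tested genes.

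Replication-independent histone variants, which can also be made outside S phase, numbered 12, of which 9 were tested. None was called by edgeR (0 of 9, also 0 at an unadjusted p under 0.05), 5 were below 0 and the median was −0.02. H3F3A, which encodes the variant H3.3, had 390.5 and 378.2 CPM in NT, 388.2 and 417.5 in c1, and 353.5 and 347.8 in c2. H2AFZ had 326.7 and 298.6 CPM in NT, 358.7 and 354.0 in c1, and 281.7 and 268.9 in c2. H2AFZ was lower in each induced library, with a log2 fold change of −0.07 (SE 0.13), and H3F3A was not lower in c1. H1F0, the linker histone of resting cells, did not exceed 0.0754 CPM in any library.

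Erythroid markers were mostly higher in the induced libraries, and calls among them depended on the block. Of 12, 11 had a log2 fold change above 0 between induced and uninduced libraries, with a median of 0.15 and 0 called by edgeR with or without the clone as a block. Blocked DESeq2 called 4 of the 12 as higher (HBA1, HBA2, HBZ and ALAS2), against 0.291% of all genes called as higher. The first 3 encode alpha-like globins, and ALAS2 is the erythroid enzyme that starts haem synthesis. Within the CDAN1 shRNA clones blocked edgeR called HBA2, with a log2 fold change of 0.35 (SE 0.06, adjusted p = 0.0344), and ALAS2, with 0.37 (SE 0.07, adjusted p = 0.0484), which is 2 of 12 against 0.249%. HBA2, ALAS2 and HBZ were called as higher by blocked DESeq2 within these clones (3 of 12, against 0.107%) and for knockdown against all controls (3 of 12, against 0.22%). With the block, both of these comparisons contrast induced with uninduced libraries of c1 and c2. The lists of S-phase genes, of genes that make histone mRNA and of histone variants had 0 called by either tool with the block in these 3 comparisons. The erythroid markers' summed level was 17640 CPM in uninduced and 18660 in induced NT, 17490 and 18300 in c1, and 12340 and 13910 in c2. The clone with the lowest clustered histone sum, c2, thus also had the lowest erythroid marker sum. Whether this or the markers of other cells, whose sum was 488.5 to 738.7 CPM uninduced and 420.0 to 660.0 CPM induced, plays a part in the histone values was not tested.

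**Figure D4:**
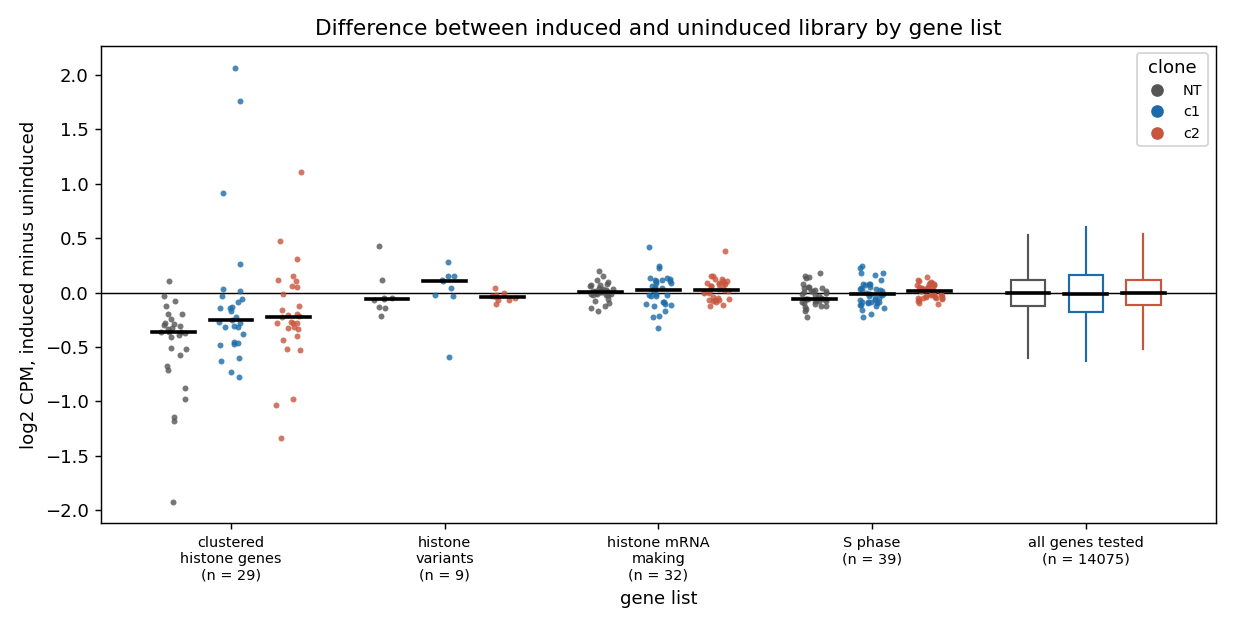
Difference between the induced and the uninduced library of each clone (log2 CPM) for the clustered histone genes and 3 other gene lists, with 1 point per gene and a black bar at the median. For all 14075 tested genes, the box spans the 25th to the 75th percentile and the line the 5th to the 95th percentile. The median of the clustered histone genes is −0.36 in NT, −0.26 in c1 and −0.23 in c2, and that of the genes that make histone mRNA is between 0.01 and 0.03.

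In the promoter table of RefSeq on GRCh38, 61 of the 71 genes had 65 windows from 250 bases before to 50 bases after a transcription start. The letters TATAAA, searched on both strands, were in 43 of the 65 windows (66.2%), against 11.5% of all 35116 windows. CCAAT, also on both strands, was in 55 (84.6%) against 34.6%. These matches describe the letters in those windows, and no binding data were analysed here.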

How the data were processed

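Per the submitters' processing notes, the authors had estimated transcript levels in 6 K562 libraries with Salmon 1.5.2 on GRCh37 (hg19). An expected count (estimated reads, not whole) and a TPM value stand beside each transcript in the deposited tables, per the file headers. For transcript annotation, trimming and strand, the sources used here give no detail. Groups were taken from the sample titles.

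Of 167268 transcripts, 151039 (90.3%) matched GENCODE release 29 by identifier. Their counts and TPM were summed to 33367 genes, and counts were rounded. The other 16229 transcripts, with 6.23% to 6.5% of the reads, entered neither library sizes nor tests. GENCODE 29 lies on GRCh38 and gave names and coordinates only. CPM was scaled by TMM, log2 values used a prior count of 2, and filterByExpr (minimum count 10) kept 14075 of 21165 genes with a count above 0. The response of a clone is its induced minus its uninduced log2 CPM, 1 library against 1, with no test.

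Tests used edgeR 4.0.16 in R 4.3.3 (two-sided quasi-likelihood test, p-values adjusted by Benjamini-Hochberg over all genes tested, threshold 0.05), checked on simulated data. The induced and uninduced library of a clone share that clone, so the clone pairs them. Deviations from the mean of each doxycycline state correlated across genes within clones (r = 0.608 in NT, 0.679 in c1, 0.741 in c2). Between clones r was −0.477 to −0.196. Deviations from a shared mean cancel across clones, which by itself lowers r between clones. Blocked fits, with a term for each clone, are given where they change a call, and DESeq2 1.42.0 and limma 3.58.1 (voom) were alternatives.

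The genes, the gene lists and the tests were chosen with earlier results of these data known. Values are given in full for 22 genes: the 4 of highest mean CPM in each class, those called in an unblocked or blocked edgeR comparison, and the one of smallest p in each comparison. At 28318555 to 32352246 estimated reads a library, genes of few reads have a wide counting error. Python 3.11.15 with pandas 2.3.3 and matplotlib 3.10.9 made tables and plots.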

Additional observations from a re-analysis of the deposited data

How the results depend on the processing

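The count of genes lower in the induced library of all 3 clones was 19 of 29 and lay between 17 and 20 with other scaling, with TPM or with all 38 detected genes, was 13 of the 16 genes of mostly unique sequence, and was 11 of the 14 genes averaging 10 CPM or more. All of these alternatives were chosen after seeing the data. With the clone as a replicate block, which pairs the libraries, the calls changed as follows. For 3 induced against 3 uninduced libraries 0 became 1 by edgeR, 4 by DESeq2 and 1 by voom, and between 0 and 3 with 1 library left out of the edgeR fit. Within the CDAN1 shRNA clones 0 became 2 by edgeR, 2 by DESeq2, 2 by voom, and 3 without induced NT. For knockdown against all controls, 0 became 2 by DESeq2 and between 0 and 3 in edgeR with 1 library left out. The block changed no call of the difference in response, which stayed at 0 in every fit run. All blocked fits other than that of edgeR with all libraries were added after seeing the data. With the block, the fold change of knockdown against all controls rests on c1 and c2 alone, as stated above. Blocked fits within the CDAN1 shRNA clones without a library of c1 or c2, and blocked or unblocked fits of the difference in response without an NT library, could not be made for lack of replicates. Without the block, no alternative called a gene in these 4 comparisons. The comparisons of clones depended more on the settings. For c1 against NT, the 3 calls became 0 by DESeq2, 0 with unmatched transcripts kept, 0 with an offset for transcript length, 1 without a doxycycline term, and 0 to 3 with 1 library left out. For c2 against NT, 4 became 2 with unmatched transcripts kept, 0 without a doxycycline term, and 3 to 7 with 1 library left out. For c1 against c2, 6 became 2, 1, and 2 to 7 in the same order. The causes were not tested. Of 670 alternatives for 36 pairs of a named gene and a comparison, 570 kept direction and side of the threshold, 63 lost a call, 23 gained one and 14 reversed, all 14 for 3 induced against 3 uninduced libraries and none of them a call. HIST1H2BN became 0.003 with library totals only, ranged from −0.103 to 0.046 with 1 library left out, and in the blocked fit reached 0.036 without uninduced NT, 0.041 without induced NT, 0.014 without uninduced c1 and 0.016 without induced c1. HIST1H4J ranged from −0.263 to 0.089 with 1 library left out, the highest without uninduced NT, and with the block reversed to 0.191 without uninduced NT and 0.196 without induced NT. With 1 library left out, HIST1H1D ranged from −0.894 to 0.059 and HIST1H4H from −0.084 to 0.904. Where an omission leaves 1 library in an arm, that library is assumed to vary like the other groups. Depth limits genes of few reads, such as HIST1H4H (16 to 79 reads) and HIST1H2AD (9 to 47).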

Other observations

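Histone pseudogenes, which the rule for clustered histone genes leaves out, also held reads. HIST2H2BC had 89 and 75 estimated reads in uninduced and induced NT, 84 and 97 in c1, and 112 and 64 in c2. HIST2H2BD had 93 and 73 in NT, 63 and 34 in c1, and 70 and 65 in c2, so that it was lower in each induced library. HIST1H1PS1 had 18 to 34 reads a library. The other 16 pseudogenes of these clusters listed in the tables did not exceed 17 reads. Sequence shared with the coding copies may divide reads between them.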
